A study of Caenorhabditis elegans with 2 samples.

Results

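The regions described here are clustered peaks of LIN-13, meaning nuclear peaks that had at least 2 other peak summits within 10 kb on the same chromosome. They numbered 505 of the 2121 nuclear peaks (23.8%) in the authors' list of reproducible peaks, selected by irreproducible discovery rate (IDR). Another 1008 nuclear peaks (47.5%) had no other summit within 10 kb and are called isolated, and 608 (28.7%) had 1 other. A summit is the base of highest enrichment within a peak. The members were therefore chosen by position and by the pooled signal behind the IDR list, so their signal values, distances and chromosomes are given as description, and tests were kept to annotation and sequence, which the choice did not use. The alternative with only the strongest peak of each run did pick peaks by signal value.

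The data came from chromatin immunoprecipitation followed by sequencing in whole L4 larvae of Caenorhabditis elegans, males and females pooled. The worms were strain OP49, an unc-119(ed3) mutant with the integrated transgene wgIs49, which carries unc-119 and a copy of lin-13 with TY1, EGFP and FLAG tags. There was 1 group of 2 biological replicates, and fragments of 150 to 350 bp were sequenced per the labels. The tagged copy was present beside the endogenous gene, whole animals mix all tissues, and depth is unknown because the files hold no read counts. On build ce11 the IDR list comprised 2141 peaks, 20 of them mitochondrial and not considered, and the relaxed lists made before the IDR step held 30000 peaks each.

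LIN-13 has many zinc fingers and belongs to the synMuv B class, genes that restrain vulval fate and keep germline genes silent in somatic cells of the worm. It is known to act with the heterochromatin protein HPL-2. Factors of this class are known to occupy promoters of active and repressed genes, and in the compact worm genome neighbouring genes often lie within a few kilobases, so several promoters can fall inside a short interval.

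Windows of 5 of the strongest clustered peaks are given first, because these are peaks a reader would look up. Each line holds the summit base with 100 bp on either side, on the plus strand of ce11, read from the RefSeq genome of that build. Capitals mark the E2F-like core used below, GGCGC or CGCGC on either strand.
Y17G9B.5 peak, chrIV:4749959-4750159: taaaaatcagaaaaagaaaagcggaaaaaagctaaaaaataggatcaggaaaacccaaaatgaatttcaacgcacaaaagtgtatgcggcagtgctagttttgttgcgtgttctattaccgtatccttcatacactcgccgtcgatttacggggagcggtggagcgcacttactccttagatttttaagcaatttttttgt
lin-13 peak, chrIII:7710173-7710373: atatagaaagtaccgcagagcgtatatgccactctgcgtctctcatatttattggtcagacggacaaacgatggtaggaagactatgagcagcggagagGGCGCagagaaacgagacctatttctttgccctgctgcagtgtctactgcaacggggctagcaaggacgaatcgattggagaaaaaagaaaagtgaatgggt
vig-1 peak, chrII:1320520-1320720: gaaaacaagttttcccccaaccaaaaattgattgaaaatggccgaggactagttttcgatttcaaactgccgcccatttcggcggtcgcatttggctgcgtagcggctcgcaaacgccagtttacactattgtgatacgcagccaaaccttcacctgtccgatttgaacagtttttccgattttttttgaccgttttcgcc
Y22D7AL.10 peak, chrIII:1619038-1619238: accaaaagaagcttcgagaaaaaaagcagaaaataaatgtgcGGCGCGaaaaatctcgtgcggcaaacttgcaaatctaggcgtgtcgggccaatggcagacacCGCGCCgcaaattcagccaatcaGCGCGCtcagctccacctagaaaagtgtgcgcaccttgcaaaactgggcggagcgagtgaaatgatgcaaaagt
K04G7.1 peak, chrIII:7162398-7162598: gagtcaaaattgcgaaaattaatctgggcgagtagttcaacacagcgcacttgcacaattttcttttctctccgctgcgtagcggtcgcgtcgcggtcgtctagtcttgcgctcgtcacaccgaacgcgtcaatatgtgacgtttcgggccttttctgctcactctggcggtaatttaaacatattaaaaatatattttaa
The summits lay 181 bp upstream of Y17G9B.5 and within 500 bp of rpl-20, 782 bp upstream of lin-13, 417 bp upstream of vig-1, 209 bp upstream of Y22D7AL.10, and 214 bp upstream of K04G7.1 and within 500 bp of syf-2. The windows at lin-13 and Y22D7AL.10 held the E2F-like core and those at Y17G9B.5, vig-1 and K04G7.1 did not, which says only that these letters are absent from those windows.

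Some windows of the same run of summits had stretches of sequence in common, and 3 runs are shown for this reason. Capitals mark bases that belong to a word of 20 bases also found, on either strand, in the non-overlapping window of another summit of the same run. Each line is trimmed to the shared stretch with up to 10 bases on either side. The first run lies on chromosome III around sms-3, Y22D7AL.6 and Y22D7AL.9.
sms-3 promoter peak, chrIII:1601571-1601701: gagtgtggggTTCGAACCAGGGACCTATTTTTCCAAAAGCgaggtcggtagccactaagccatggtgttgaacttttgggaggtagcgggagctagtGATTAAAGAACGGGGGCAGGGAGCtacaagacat
Y22D7AL.9 intron peak, chrIII:1612681-1612745: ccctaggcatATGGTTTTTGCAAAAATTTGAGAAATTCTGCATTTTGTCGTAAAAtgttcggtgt
Y22D7AL.9 intergenic peak, chrIII:1616356-1616441: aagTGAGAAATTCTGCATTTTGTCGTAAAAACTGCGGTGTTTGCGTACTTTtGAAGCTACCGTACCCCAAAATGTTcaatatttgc
Y22D7AL.6 intergenic peak, chrIII:1603913-1604033: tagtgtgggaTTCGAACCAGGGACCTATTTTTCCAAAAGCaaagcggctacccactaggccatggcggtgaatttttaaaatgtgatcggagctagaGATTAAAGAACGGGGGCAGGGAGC
Y22D7AL.9 intron peak, chrIII:1611665-1611754: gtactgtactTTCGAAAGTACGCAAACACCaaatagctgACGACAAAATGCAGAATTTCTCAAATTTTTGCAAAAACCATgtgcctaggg
Y22D7AL.9 intron peak, chrIII:1608279-1608367: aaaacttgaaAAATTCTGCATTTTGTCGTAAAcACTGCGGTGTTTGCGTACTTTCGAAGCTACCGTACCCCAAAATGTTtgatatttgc
The window near the sms-3 promoter and the window upstream of Y22D7AL.6 held the same 54 capital bases in 2 blocks, and the 4 other windows shared words among themselves. The next run lies in and around introns of pqn-41 and F53A3.1, also on chromosome III.
pqn-41 intron peak, chrIII:1938184-1938232: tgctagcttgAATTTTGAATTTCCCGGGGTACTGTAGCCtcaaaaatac
pqn-41 intron peak, chrIII:1938824-1938878: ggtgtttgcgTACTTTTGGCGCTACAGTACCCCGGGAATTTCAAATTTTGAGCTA
F53A3.1 intron peak, chrIII:1940061-1940115: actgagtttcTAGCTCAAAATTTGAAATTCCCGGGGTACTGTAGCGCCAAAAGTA
pqn-41 intron peak, chrIII:1931728-1931782: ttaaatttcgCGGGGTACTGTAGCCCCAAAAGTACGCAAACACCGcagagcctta
pqn-41 promoter peak, chrIII:1927415-1927483: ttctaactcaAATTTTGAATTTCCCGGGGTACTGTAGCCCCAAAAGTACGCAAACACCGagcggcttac
The last pair lies in introns of jip-1 on chromosome II, and both windows held the same 61 capital bases in 2 blocks.
jip-1 intron peak, chrII:1334123-1334206: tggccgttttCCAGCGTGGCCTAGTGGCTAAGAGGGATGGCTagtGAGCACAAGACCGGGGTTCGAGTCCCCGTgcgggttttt
jip-1 intron peak, chrII:1335729-1335812: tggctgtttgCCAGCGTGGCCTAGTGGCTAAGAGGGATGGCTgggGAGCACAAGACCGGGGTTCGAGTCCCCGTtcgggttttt
Of the 505 clustered peaks, 48 (9.50%) shared such a word with a summit of their own run, and 26 of these lay outside 500 bp of any annotated tRNA, snoRNA, snRNA, miRNA or rRNA gene. How reads that match several places were counted is not given in the sources used here, so signal at these windows cannot be told apart between the copies. A word of 20 bases shared with any other IDR summit, near or far, was found in 126 clustered peaks (24.95%) and in 27.1% of isolated peaks, a difference that did not pass Fisher's exact test (p = 0.387), so no excess of shared words in clustered peaks was detected with words of this length.

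The clustered peaks formed 156 runs, a run being a chain of at least 3 summits each at most 10 kb from the next. The runs held 587 summits, namely the 505 clustered peaks and end summits that had only 1 other within 10 kb, and in 103 runs every summit was a clustered peak. Most runs were short: 91 had 3 summits, 41 had 4, 11 had 5, 7 had 6, 2 had 7, 3 had 9 and 1 had 12. The span from first to last summit had a median of 8.95 kb and ranged from 0.469 kb at eel-1, a ubiquitin ligase gene, to 37.0 kb. The nearest other summit lay at a median of 1846 bp from a clustered peak, and for 49 clustered peaks (9.70%) it was closer than 500 bp. The smallest such distance was 199 bp, within the range of fragment sizes, and 33 clustered peaks overlapped another IDR peak, so that for these separate sites and 1 enriched stretch cannot be told apart. With summits closer than 500 bp merged, the count was 460.

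Within a run the summits were of unequal strength. The strongest summit had a median of 1.93 times the signal value of the weakest, with a range from 1.06 to 14.2 times. The signal value is that of the authors' peak caller, with no stated scaling. The largest ratio belonged to the 5 summits around rpl-3, which encodes a protein of the large ribosomal subunit. There the rpl-3 promoter peak had a signal value of 634.7, the highest of the nuclear list, while the other 4 summits had 79.6 at the brc-1 promoter, 71.3 in a UTR of tir-1, 46.6 at a tir-1 promoter and 44.7 in a tir-1 intron. Of the 156 strongest summits, 95 (60.9%) lay at promoters, compared with 191 of the 431 other summits of the runs (44.3%).

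**Figure D1:**
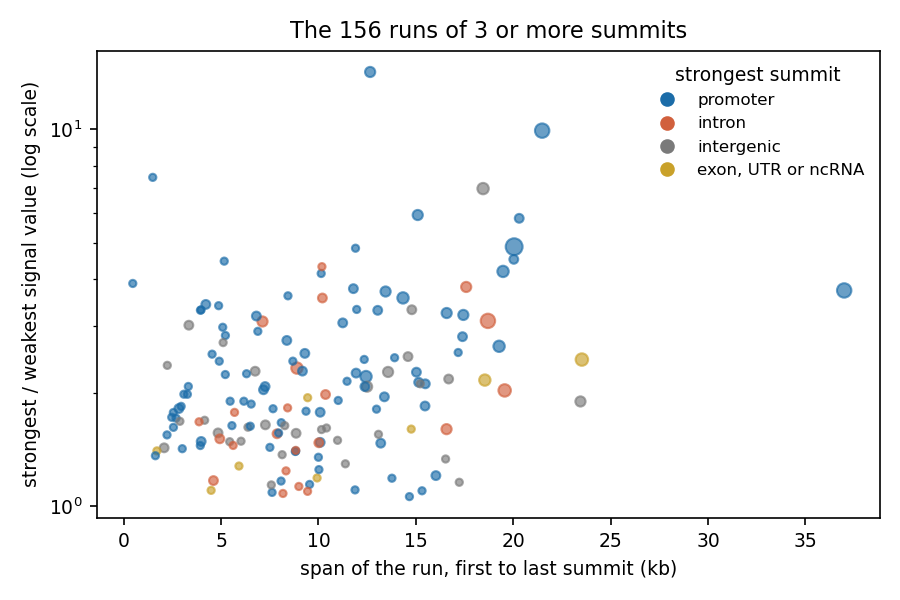
Each point is 1 of the 156 runs, with its span in kb on the x axis and the ratio of its strongest to its weakest signal value on a log y axis. Point area grows with the number of summits and colour gives the position of the strongest summit; most runs lie under a ratio of 5, and the run at rpl-3 stands at 14.2.

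The clustered peaks had a median signal value of 58.5, from 40.2 to 634.7, and the isolated peaks 56.2, from 40.1 to 512.9. They made up 2 of the 10 strongest nuclear peaks, 28 of the 100 strongest and 142 of the 500 strongest (28.4%), compared with 22.4% of the remaining nuclear peaks. Clustered peaks were 33.8% of the summits on chromosome I (133 of 394), 26.9% on III (118 of 438), 24.1% on IV (76 of 316), 21.9% on II (77 of 351), 17.9% on V (47 of 262) and 15% on X (54 of 360). Chromosome III had the densest summits at 31.8 per Mb, with 26.1 per Mb on chromosome I, so the order of the clustered share did not follow the density exactly.

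The 8 strongest clustered peaks were seen in both replicates. They were picked by pooled signal value from a list of reproducible peaks, so the choice favoured this, and the values are a description. The rpl-3 peak had a signal value of 292.8 in replicate 1 and 342.9 in replicate 2 and ranked 1 among nuclear peaks in each. The peak shared by Y17G9B.5 and rpl-20, another large ribosomal subunit gene, had 173.7 and 130.7, and the pooled value was 307.9. The peak upstream of lin-13, where any reads from the transgene cannot be told apart, had 159.8 and 125.1 and a pooled value of 285.6. These values were well above those of most clustered peaks, whose medians were 35.4 in replicate 1 and 27.7 in replicate 2. The peak at vig-1, whose product is a subunit of the RNA-induced silencing complex, had 123.9 and 123.3. The peak at Y22D7AL.10 had 129.7 and 100.7, and the peak at K04G7.1 and syf-2, a splicing factor gene, had 142.9 and 86.2. The peak at his-37, a histone H4 gene, had 129.8 and 92.2, and the peak at wwp-1, a ubiquitin ligase gene, had 100.6 and 114.9. Replicate 1 was higher in 6 of these 8 peaks and replicate 2 in the rpl-3 and wwp-1 peaks, and every one of the 8 ranked within the first 61 of its replicate.

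Over all members replicate 1 had the higher signal value in 362 of 505 (71.7%), close to the 72.2% of all nuclear peaks, and the median ratio of replicate 1 to replicate 2 was 1.27, with 1.29 in isolated peaks. Each replicate's own list was cut to its 2141 highest peaks to match the IDR list. Of the clustered peaks 422 (83.6%) overlapped one of these in replicate 1, 405 (80.2%) in replicate 2, 330 (65.3%) in both and 8 in neither. Of the isolated peaks 593 (58.8%) overlapped one in both and 36 in neither. The members were chosen on the pooled signal of these replicates, so the overlaps are a description. In 34 clustered peaks the matched replicate peak was the same as that of another clustered peak, in each replicate.

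Neighbours were also counted within each replicate's own list, where a peak had to be present before it could be clustered. There 351 clustered peaks (69.5%) were clustered in replicate 1, 315 (62.4%) in replicate 2 and 39.8% in both. Of the 156 runs, 107 held at least 3 summits in replicate 1, 100 in replicate 2, 68 in both and 17 in neither. The totals were similar: replicate 1 alone gave 493 clustered peaks in 149 runs and replicate 2 alone 560 in 164 runs. The run of 7 summits at tmem-120 and snf-6 was one that differed, with 8 summits in replicate 1 and 2 in replicate 2.

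**Figure D2:**
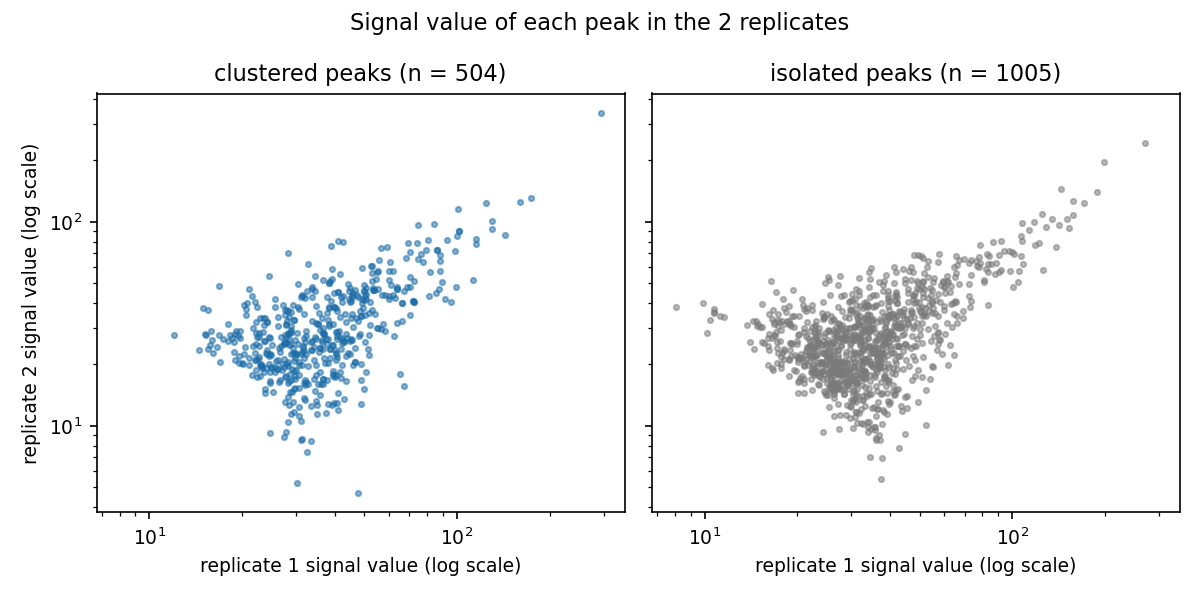
Each point is 1 peak, with its signal value in replicate 1 on the x axis and in replicate 2 on the y axis, both on log scales, for 504 clustered peaks on the left and 1005 isolated peaks on the right that had a value in both. Both clouds are wide at low values and narrow at high ones, and the rpl-3 peak stands alone at 292.8 and 342.9 in the clustered panel.

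Clustered peaks lay at promoters less often than isolated peaks. A promoter here is 500 bp on either side of the annotated start of a protein-coding transcript, and 243 clustered peaks (48.1%, exact 95% interval 43.7 to 52.6%) had their summit in one, compared with 574 isolated peaks (56.9%, 53.8 to 60.03%) and 53.3% of all nuclear peaks. The difference passed Fisher's exact test (adjusted p = 0.00373 by Benjamini-Hochberg over 6 position shares). It depended on which summits were counted: with only the strongest clustered peak of each run, 59.6% of 156 were at promoters, above the 56.9% of isolated peaks, and the difference did not pass (adjusted p = 0.544, Fisher's exact test). The strongest peak was picked by signal value, and isolated peaks were not picked in that way. Clustered promoter peaks had a median signal value of 62.0 and other clustered peaks 55.9, so this pick is not neutral towards promoters. With the first clustered peak of each run by position, 50% were at promoters (adjusted p = 0.237, Fisher's exact test). Peaks of a run share a neighbourhood, so the p-values over all peaks are too small to that extent.

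Promoters shared by 2 or more genes stood out more. Only 44 clustered peaks (8.71%, exact 95% interval 6.40 to 11.5%) lay within 500 bp of the starts of more than 1 protein-coding gene, compared with 175 isolated peaks (17.4%, 15.1 to 19.8%) and 14% of all nuclear peaks (adjusted p = 2.53e-05, Fisher's exact test). Among promoter peaks alone the shares were 18.1% and 30.5% (adjusted p = 0.00162, Fisher's exact test, in a split chosen after seeing the data). Over all positions, with 1 strongest peak per run the shares were 14.7% and 17.4% (adjusted p = 0.544, Fisher's exact test). With the first peak per run by position they were 9.62% and 17.4%, which narrowly passed (adjusted p = 0.0491, Fisher's exact test). Gene density near the peaks was similar, with a median of 4 protein-coding genes within 10 kb in both sets and a median of 27.6% of bases around clustered peaks and 24.9% around isolated peaks in promoter windows. Of the clustered promoter peaks 206 (84.8%) had their summit upstream of the nearest 5' end, at a median distance of 211 bp on either side, and of the isolated ones 518 (90.2%), at 175 bp.

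Introns held more of the clustered peaks. They numbered 98 (19.4%, exact 95% interval 16.0 to 23.1%), compared with 133 isolated peaks (13.2%, 11.2 to 15.4%) and 15.4% of all nuclear peaks (adjusted p = 0.00373, Fisher's exact test), promoter windows being left out. Only peaks outside promoters can be called intronic, so a lower promoter share leaves more room for introns. Among peaks outside promoters the intron shares were 37.4% and 30.6% (adjusted p = 0.137, Fisher's exact test), in a split chosen after seeing the data. The intron excess was thus not shown apart from the lower promoter share. With 1 strongest peak per run the shares were 15.4% and 13.2% (adjusted p = 0.544, Fisher's exact test). The intron call also ended at a radius of 5 kb and in the stricter list, the stronger part of the IDR list. The relaxed peaks outside the IDR list that lay near clustered peaks were intronic in 29.6% of cases and those near isolated peaks in 26.7%. Intergenic shares were 23.6% (119 clustered peaks) and 22.3% (225 isolated peaks), against 22.6% of all nuclear peaks, and did not pass (adjusted p = 0.603, Fisher's exact test). Among peaks outside promoters they were 45.4% and 51.8% and did not pass either (adjusted p = 0.176, Fisher's exact test).

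The intron share was highest where neighbours were most numerous. Among clustered peaks with 2 or 3 other summits within 10 kb, 65 of 435 (14.9%) were in introns, and among those with 4 or more, 33 of 70 (47.1%). Promoter shares by number of other summits were 56.9% at 0, 51.6% at 1, 55.7% at 2, 42.3% at 3, 31.3% at 4 and 23.7% at 5 or more. The corresponding intron shares were 13.2%, 15.8%, 13.8%, 17.5%, 40.6% and 52.6%. The steps are not independent samples: the 38 peaks with 5 or more neighbours came from 7 runs, and their 20 intron peaks from 6 genes.

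**Figure D3:**
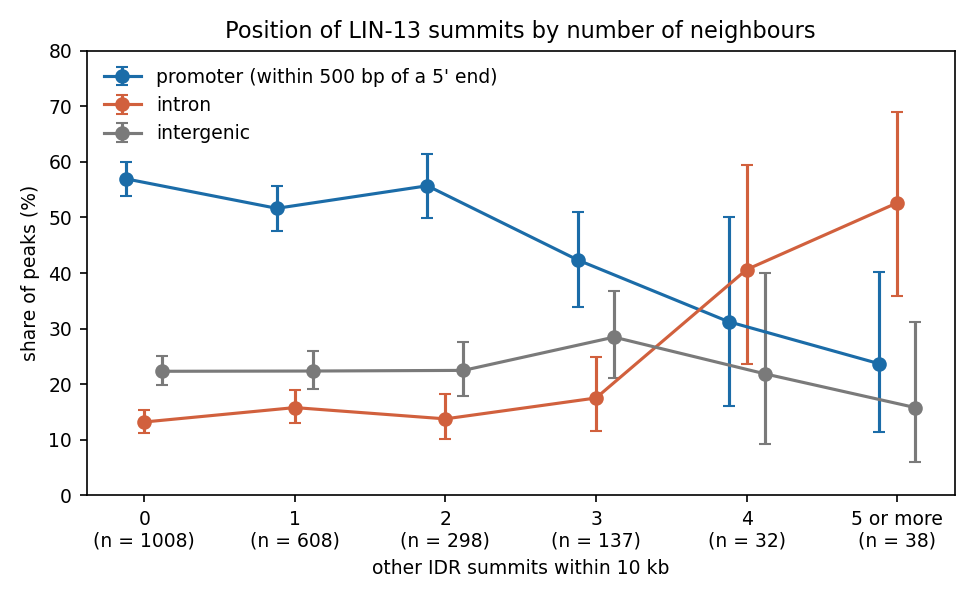
The share of nuclear peaks at promoters, in introns and between genes is plotted against the number of other IDR summits within 10 kb, with exact 95% intervals as bars and the number of peaks under each step. The promoter share goes from 56.9% to 23.7% and the intron share from 13.2% to 52.6%, and the intervals are wide at 4 and at 5 or more.

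Many clustered intron peaks shared a host gene with another, which the rule favours because members need neighbours within 10 kb. The genes named here were chosen after the values were seen, those with 4 or more peaks by their counts. The gene skn-1, with 2, was not chosen by count. The 98 peaks lay in 53 host genes, 23 of which held at least 2 and together 68 of the peaks, and 10 of which held at least 3. The 133 isolated intron peaks lay in 130 genes, and by definition no pair of them can be within 10 kb of each other. The host of a clustered intron peak had a median length of 13244 bp, that of an isolated one 8634 bp, and that of a relaxed intron peak outside the IDR list 8625 bp. These medians are over peaks, so a gene with several clustered intron peaks counted several times, pqn-41 for example 7 times. They therefore do not show that the host genes of clustered peaks, each counted once, were longer. The gene with most intron peaks was pqn-41, which encodes a glutamine-rich protein needed for death of the linker cell, with 7 in 33613 bp and signal values from 50.5 to 128.4. Its peak of 50.5 had a signal value of 47.8 in replicate 1 but 4.67 in replicate 2, the lowest there of all clustered peaks. The TGF-beta pathway gene daf-5 had 6 intron peaks, from 43.2 to 87.8. Of these, 2 lay 0.216 kb apart, overlapped and matched the same peak in each replicate, so they cannot be told apart as sites. The gene ppfr-1, for a regulatory subunit of protein phosphatase 4, had 5, from 53.5 to 124.5. The AF10 homologue zfp-1 had 5, from 46.8 to 144.7, and let-526, a SWI/SNF subunit gene, had 4, from 55.3 to 64.7. The introns of skn-1, a stress response transcription factor gene, had 2, with signal values of 158.0 and 63.0. The highest intron peaks of daf-5 and let-526 were thus below 100, and those of pqn-41, ppfr-1, zfp-1 and skn-1 above it. Of the genes with 3 intron peaks, Y111B2A.12 reached 161.7. The highest values of Y22D7AL.9, Y48C3A.5, jip-1 and rgs-4, also with 3, went from 46.3 to 69.5.

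Repeats and small RNA genes differed in opposite directions. A soft-masked repeat lay at the summit of 110 clustered peaks (21.8%, exact 95% interval 18.3 to 25.6%), compared with 163 isolated peaks (16.2%, 13.9 to 18.6%) and 17.6% of all nuclear peaks (adjusted p = 0.0130, Fisher's exact test). The call ended in 10 other settings, with either replicate alone among them. Another was a repeat counted only where most of the window was masked (13.1% against 12.2%, adjusted p = 0.622, Fisher's exact test). A tRNA, snoRNA, snRNA, miRNA or rRNA gene lay within 500 bp of 62 clustered peaks (12.3%, exact 95% interval 9.54 to 15.5%), compared with 174 isolated peaks (17.3%, 14.98 to 19.7%) and 16.3% of all nuclear peaks (adjusted p = 0.0156, Fisher's exact test). That difference lay outside promoters, where the shares were 15.6% and 29.3% (adjusted p = 0.000225, Fisher's exact test), while among promoter peaks they were 8.64% and 8.19% (adjusted p = 1, Fisher's exact test), a split chosen after seeing the data. The call over all peaks ended with replicate 2 alone (13.2% against 15.2%, adjusted p = 0.395, Fisher's exact test) and at a radius of 20 kb (a difference of -0.487 percentage points, adjusted p = 0.994, Fisher's exact test). It also ended in the stricter list and with either choice of 1 peak per run (adjusted p from 0.0854 to 0.492, Fisher's exact test). By type, tRNA genes lay near 32 clustered peaks (6.34%) and 9.72% of isolated ones, snoRNA genes near 20 (3.96%) and 5.75%, snRNA genes near 7 (1.39%) and 1.09%, and miRNA genes near 4 (0.792%) and 0.794%.

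**Figure D4:**
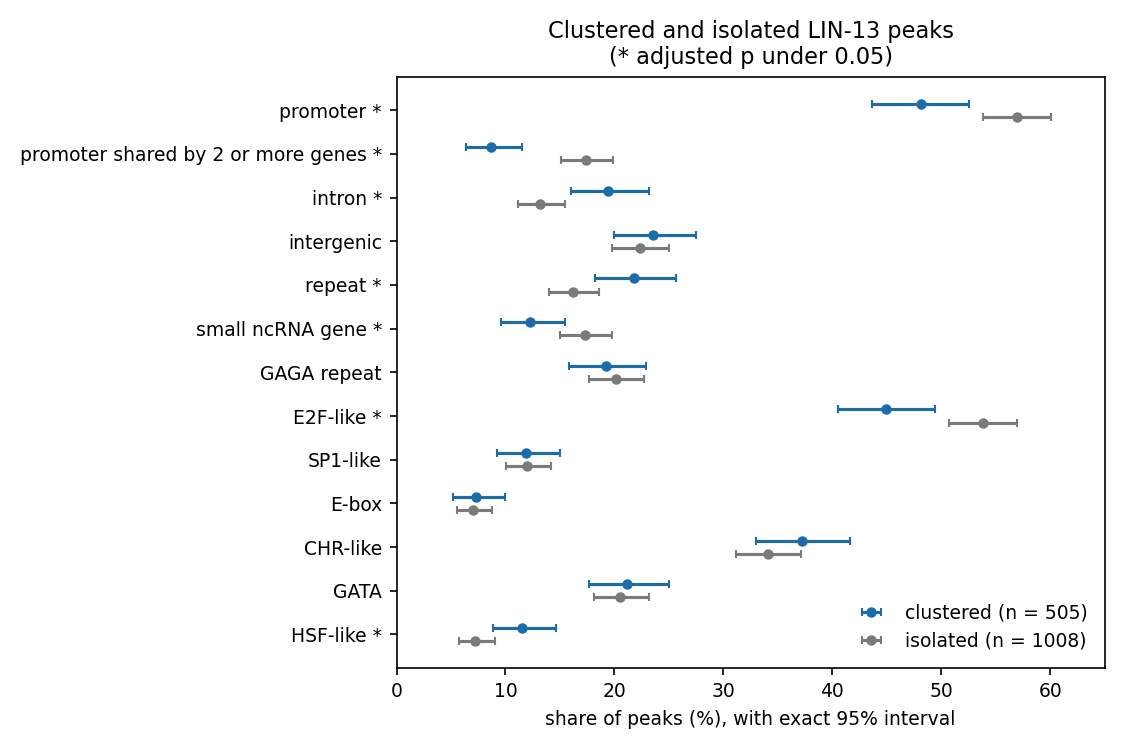
The share of 505 clustered and 1008 isolated peaks in each position class and with each motif within 100 bp of the summit is plotted with exact 95% intervals. Stars mark the 7 shares with an adjusted p under 0.05 in Fisher's exact test; the E2F-like share is 45.0% in clustered and 53.9% in isolated peaks.

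Of 7 motifs searched within 100 bp of the summit on both strands, 2 differed. The E2F-like core, GGCGC or CGCGC, of the kind E2F and DP factors are known to bind, was near 227 clustered peaks (44.95%, exact 95% interval 40.6 to 49.4%), 543 isolated peaks (53.9%, 50.7 to 56.98%) and 50% of all nuclear peaks (adjusted p = 0.00899, Fisher's exact test over 7 motifs). Among promoter peaks its shares were 53.1% and 60.98%, and elsewhere 37.4% and 44.5%, and neither split passed (adjusted p = 0.303 and 0.160, Fisher's exact test). The HSF-like motif TTCNNGAA, of the heat shock factor kind, was near 58 clustered peaks (11.5%, exact 95% interval 8.84 to 14.6%), 73 isolated peaks (7.24%, 5.72 to 9.02%) and 8.49% of all nuclear peaks (adjusted p = 0.0231, Fisher's exact test). In the stricter list its shares turned to 5.51% and 7.30% (adjusted p = 0.801, Fisher's exact test). Relaxed peaks outside the IDR list near clustered peaks had the E2F-like core in 18.8% and the HSF-like motif in 13.7% of windows, and those near isolated peaks in 19.3% and 14.5%. Neither motif passed with 1 peak per run, at 5 kb or 20 kb, with at least 3 other summits or in the stricter list.

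The other 5 motifs did not pass (Fisher's exact test, adjusted p from 0.592 to 1), but in other settings 2 of them did. The GATA factor motif passed in the looser list (29.1% against 23.8%, adjusted p = 0.00352, Fisher's exact test), and the E-box passed with replicate 2 alone (10% against 6.03%, adjusted p = 0.0336, Fisher's exact test). GAGAGAG was near 97 clustered peaks (19.2%), 20.1% of isolated peaks and 19.8% of all nuclear peaks. The SP1-like GGGCGG was near 60 (11.9%), 12% and 11.1%, and the E-box CACGTG near 37 (7.33%), 7.04% and 6.98%. The CHR-like TTTGAA was near 188 (37.2%), 34.1% and 34.8%, and the GATA factor motif, AGATAA or TGATAA, near 107 (21.2%), 20.5% and 21.3%. GGGCGG and GGCGC can overlap by some of their letters, and a match is no evidence of binding. Median GC content of the windows was 43.8% in both sets.

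The longest runs differed in make-up. The run of 12 summits on chromosome III spanned 20.05 kb from sms-3, a sphingomyelin synthase family gene, to Y22D7AL.10, and all 12 were clustered peaks. Its strongest summit was the Y22D7AL.10 promoter peak at 230.3, its weakest an intron peak of Y22D7AL.9 at 47.2, and 5 summits were at promoters, 4 intergenic, 3 in introns and 5 on repeats. Its promoter summits, from 85.8 to 230.3, were all above its intron summits, from 47.2 to 69.5. Replicate 1 alone held 12 summits there and replicate 2 held 10.

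The run of 9 summits on chromosome II spanned 21.5 kb. Its strongest summit, at the promoter of cdc-48.1, an AAA ATPase gene, had a signal value of 412.1 and was at the end of the run with only 1 neighbour, so it was not itself a clustered peak. The other 8 lay at pro-1, a gene needed for ribosomal RNA processing, and in and around mnk-1, a kinase gene, and ranged from 41.5 to 69.6. The second run of 9, on chromosome I, was the longest at 37.0 kb and passed 7 nearest genes. It ended in the promoter peak of ints-4, an Integrator subunit gene, at 197.1, and included promoter peaks at cox-4, a cytochrome oxidase subunit gene, at 80.8 and between rpl-31 and sac-2 at 86.99.

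**Figure D5:**
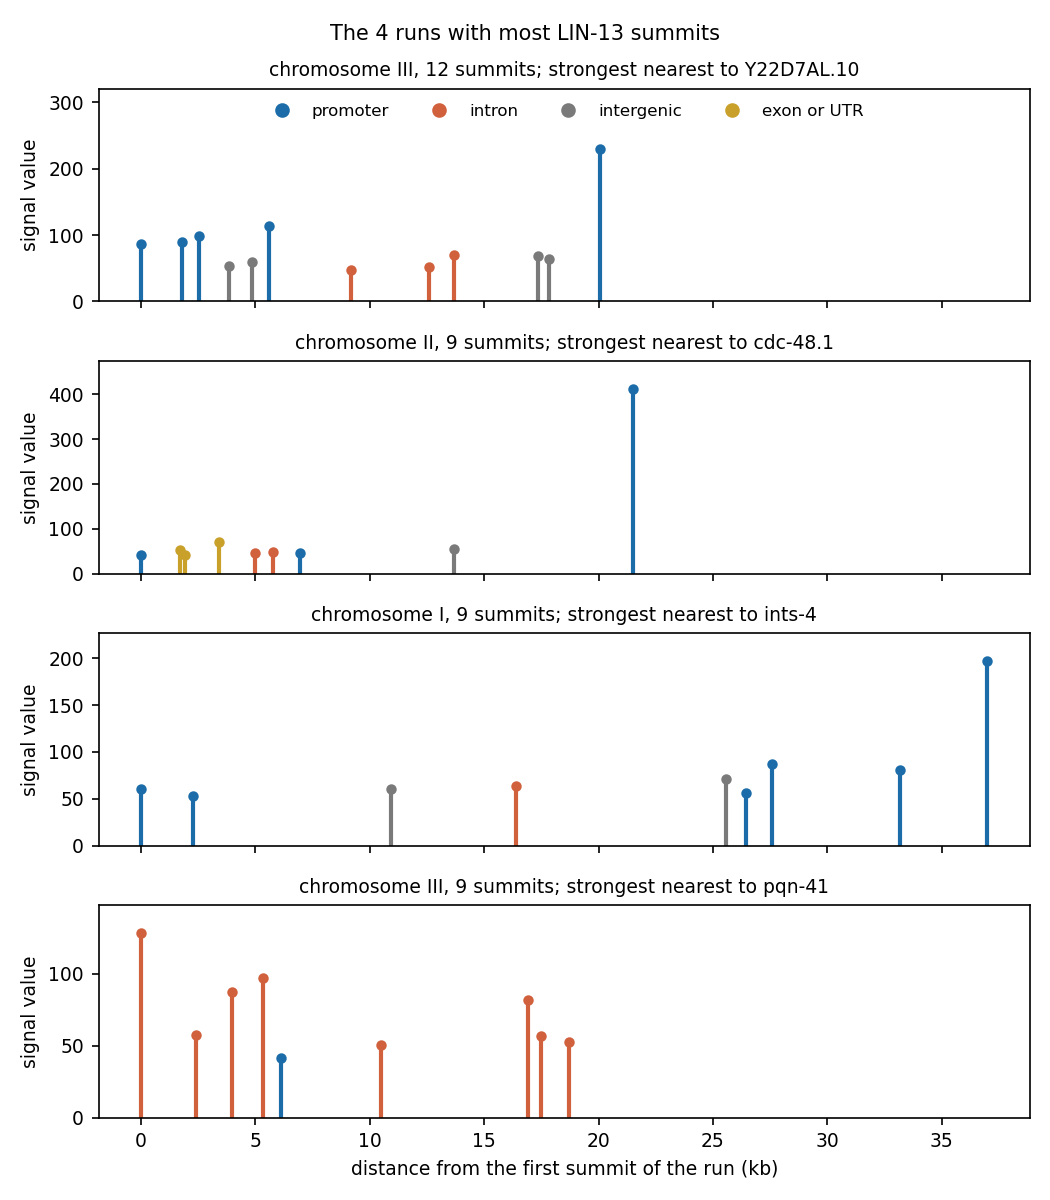
The 4 runs with most summits are drawn with distance from the first summit in kb on the x axis and the signal value of each summit on the y axis, coloured by position class. The run that ends at cdc-48.1 has 1 summit of 412.1 and 8 of at most 69.6, and the run at pqn-41 consists of intron summits apart from 1 promoter summit of 41.3.

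The third run of 9, on chromosome III, lay almost wholly in introns, with 7 summits in introns of pqn-41, 1 in an intron of F53A3.1 and 1 at a pqn-41 promoter. Its signal values went from 41.3 at that promoter to 128.4 in an intron, so here the promoter summit was the weakest. The run of 7 on chromosome II had 6 summits in introns of daf-5, from 43.2 to 87.8, and 1 at the promoter of rpb-11, an RNA polymerase II subunit gene, at 81.8. Replicate 1 alone held 4 summits in this run and replicate 2 held 6. The other run of 7, on chromosome III, had its strongest summit at 104.9 in a UTR of snf-6, an acetylcholine transporter gene, and 5 of its 7 summits were on repeats. Over all 156 runs, 28 had only promoter summits, 23 had none, and in 21 a single gene was nearest to every summit.

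The run at lin-13 itself had 6 summits over 18.5 kb on chromosome III, 5 of them clustered peaks. From the lin-13 side they had signal values of 285.6 (782 bp upstream of lin-13), 144.6 and 79.4 (1226 bp and 204 bp upstream of C03B8.3), 141.1 (1214 bp upstream of ncl-1), and 41.0 and 55.3 in ncl-1 introns. The gene ncl-1 is known to limit nucleolar size. The transgene carries lin-13 sequence, and reads from it and from the endogenous locus cannot be told apart here. Without this run the 6 position and 7 motif results kept their direction and their side of the threshold.

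Among the runs of 6 on chromosome I, that from F25H2.4 to pas-5 held 5 clustered peaks. Its promoter summits were at F25H2.4 (59.3), at ndk-1, a nucleoside diphosphate kinase gene (171.2), at ubc-25, a ubiquitin-conjugating enzyme gene (77.6), and at pas-5, a proteasome subunit gene (57.0). Its other summits, at 111.3 and 47.9, were within 500 bp of the snoRNA gene F25H2.15 and shared 1 matched peak in each replicate.

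Of 19973 protein-coding genes, 267 (1.34%) had a clustered summit within 500 bp of a 5' end, and 1397 had any IDR summit there, so 19.1% of genes with a summit had a clustered one. Among 81 ribosomal protein genes, 59 had a summit and 17 of these (28.8%) a clustered one, including rpl-3, rpl-20, rps-15 (signal value 132.3), rpl-23 (113.4) and rpl-4 (112.7). The proteasome had 6 of 17 (35.3%), all of modest signal value, from 60.2 at rpt-1 to 40.6 at rpn-6.1. Translation factors had 5 of 16 (31.3%), led by eef-2 at 123.7 and eef-1G at 121.3, and chaperones 6 of 20 (30%), led by hsp-90 at 185.8 and hsp-1 at 129.2. These counts are small, and a single peak can count in more than 1 list, as at the translation factor gene eif-6 and the proteasome gene pbs-2, which share a peak of 49.5.

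Other lists had few or no genes with a clustered summit, to be read beside the 19.1% of all protein-coding genes with a summit. Their counts are too small to be told apart from that share and were not tested. Of 7 mitochondrial ribosomal protein genes with a summit, 5 collagen genes, 3 chemoreceptor genes, 4 F-box genes and 1 C-type lectin gene, 0 had a clustered one. Histone genes had 1 of 7, his-37 at 222.5, and nuclear hormone receptor genes 1 of 10, nhr-105 at 42.96. Genes of LIN-13's own class had 2 of 7: lin-53, which encodes a histone-binding protein of the MuvB core and shares its peak with nra-2, at 109.7, and mep-1, a zinc-finger gene, at 56.6. The mep-1 run was compact, with 3 summits in 1.63 kb.

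Among genes of small RNAs with a summit within 500 bp, 36 of 232 tRNA genes (15.5%) had a clustered one, 19 of 100 snoRNA genes (19%), 5 of 28 snRNA genes (17.9%) and 4 of 24 miRNA genes (16.7%). These shares lay near or below the 19.1% of protein-coding genes with a summit, and 23.8% of all nuclear peaks were clustered. Genes were counted here, and neighbouring genes can share 1 peak, as some tRNA genes on chromosome III do. The miRNA genes were mir-80 (signal value 77.3), mir-238 (57.95) and mir-90 (53.0), which lay in 1 stretch of chromosome III, and mir-4806 on chromosome II (51.2). The strongest snoRNA case was Y75B12B.12 at 129.3, and the strongest snRNA case T11F9.15 at 99.1. Both summits also lay at protein-coding promoters, those of Y75B12B.11 and snr-4.

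The 10 kb limit passed between similar peaks. Just inside it were rps-17 and ech-1.2 on chromosome I, each with its second neighbour at 10000 bp and signal values of 89.2 and 66.1, and bag-1, a gene for an Hsp70 cofactor, at 9969 bp and 193.9. Just outside were Y55F3BR.1 on chromosome IV at 10015 bp and 52.5, and zfp-3 and D1005.2 on X at 10027 bp, with 66.8 and 55.9. All but the D1005.2 peak, which was intergenic, were promoter peaks.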

How the data were processed

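Chromatin immunoprecipitated with EGFP-tagged LIN-13 from whole L4 larvae was sequenced in 2 biological replicates, which form 1 group per the labels. The authors deposited peak lists on builds ce11 and ce10: a relaxed list per replicate, a relaxed list of the pooled replicates and an IDR list, each called with a control per the deposited listings. The signal value of each peak and its −log10 q-value are the authors' own, deposited with no stated scaling; the −log10 q-value was not used, because strong peaks share its maximum. The peak caller is, like the aligner, the IDR threshold and their versions, not given in the sources used here. Depth per replicate is unknown.

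Summits were taken on ce11 and annotated with Ensembl release 115 and the RefSeq WBcel235 genome, in which soft-masked bases were taken as repeats. Position classes were assigned in the order promoter (500 bp on either side of a protein-coding 5' end), coding exon, UTR, intron, non-coding exon, intergenic. Shares were compared with Fisher's exact test, two-sided, adjusted by Benjamini-Hochberg over 6 position shares and over 7 motifs, at a threshold of 0.05. Intervals are exact Clopper-Pearson 95% intervals and cover counting error only. Named were the 8 runs with most summits, the 8 strongest clustered peaks, 3 peaks on each side of the 10 kb limit, up to 2 genes per list with the highest clustered peak (a few more are given for lists with several) and the run at lin-13. The sequence of 1 strong peak is not reported here. Members, lists and motifs were chosen with earlier results of these data known. Alternatives were other radii and neighbour counts, merged summits, stricter and looser lists, 1 replicate alone, 1 peak per run, other windows and the ce10 list. Neighbour counting and the tests were tested on simulated data. Features were drawn there for each peak on its own, so the dependence of peaks within a run was not covered. Calculations used Python 3.11.15 with SciPy 1.17.1, pandas 2.3.3, NumPy 2.4.6 and, for figures, matplotlib 3.10.9.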

Additional observations from a re-analysis of the deposited data

How the results depend on the processing

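No depth was known, which limits what can be said of the lists, and peaks of 1 run are not independent. No paired analysis was possible because the study has only 1 group. The splits by promoter, the shared words, the first peak of a run by position and the removal of the lin-13 run were chosen after seeing the data. On ce10 only the number of clustered peaks was run. Except where given, the cause of a change was not tested.

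The number of clustered peaks was 263 at 5 kb, 842 at 20 kb, 207 with at least 3 other summits, 127 in the stricter list and 1948 in the looser list; it was 494 on ce10, and 493 to 560 with 1 replicate left out.

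Values below are clustered minus isolated shares in percentage points. With 1 replicate left out the promoter difference was -13.9 to -8.02, that of shared promoters -8.61 to -8.44, intron 5.92 to 6.48, intergenic -3.21 to 3.72, repeat 0.939 to 2.83, small RNA genes -5.99 to -1.96, and 2 to 3 motifs passed; the repeat call ended in both and the small RNA call without replicate 1. With the strongest peak per run, picked by signal value, the promoter difference reversed to 2.67 and the intergenic one to -3.09. The calls ended there for shared promoters (-2.62), introns (2.19), repeats (3.70) and small RNA genes (-7.65). With the first peak per run they ended for promoters (-6.94), introns (2.19) and small RNA genes (-2.52). At 5 kb they ended for introns (5.18) and repeats (4.19), at 20 kb for small RNA genes (-0.487), with at least 3 other summits for repeats (5.09), in the stricter list for introns (6.90), repeats (3.72) and small RNA genes (-6.49), and in the looser list for repeats (2.37). The repeat call also ended where most of the window had to be masked (0.867), among promoter peaks (3.60) and outside promoters (7.15). Among promoter peaks the small RNA difference reversed to 0.454. Outside promoters the intron call ended (6.76) and the intergenic difference reversed to -6.42. The shared promoter call ended in no setting but the strongest peak per run.

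Motifs passing numbered 0, instead of 2, at 5 kb, at 20 kb, with at least 3 other summits, in the stricter list, with either choice of 1 peak per run and among promoter peaks, and 1 outside promoters, with fewer peaks tested in all but the 5 kb and 20 kb settings. Shared words differed by -8.69 with 15 bases, which passed (Fisher's exact test, p = 5.37e-06), and by 0.761 with 25 bases, a reversal.

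Reversed differences of single motifs follow. GAGAGAG was 0.724 at 20 kb, 1.12 with at least 3 others, 1.70 in the stricter list, 0.715 without replicate 2, 2.94 and 0.374 with the strongest or first peak per run and 0.118 among promoter peaks. SP1-like was 1.68 at 5 kb, 1.04 with at least 3 others and also without replicate 1, 0.597 in the stricter list, 0.642 in the looser list, 1.21 without replicate 2, 0.817 and 1.46 per run, 1.05 against all other peaks and 0.470 outside promoters. GATA was -0.933 at 20 kb, -0.246 with at least 3 others, -2.59 with the first peak per run, -0.0990 against all other peaks and -3.89 outside promoters. CHR-like was -1.97 in the stricter list, -1.31 in the looser list, -0.733 to 0.709 with 1 replicate left out and -3.36 with the first peak per run. E-box was -2.56 with the first peak per run, -0.404 with 50 bp windows and -0.225 among promoter peaks. HSF-like was -1.79 in the stricter list.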
